A study of Mus musculus with 6 samples.

Results

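A set of 9 RNA-binding proteins that steer germ cell fate were followed in cell fractions of the prepubertal mouse testis: Dazl, Dnd1, Elavl2, Nanos1, Lin28b, Igf2bp1, Igf2bp2, Igf2bp3 and Pum2. Members were every probe set that the platform annotation assigns to 1 of these genes and to no other. This gave 25 of the 45037 probe sets tested, for 8 of the 9 genes. Igf2bp2 had no such probe set and is not analysed here. The comparison asks whether transcripts of these regulators are higher or lower in the fraction that holds more stem cells.

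Mouse testis cells had been separated with magnetic beads, by the surface protein Thy1, into a Thy1-positive and a Thy1-negative fraction. Per the labels, germ cell transplantation found spermatogonial stem cells enriched in the Thy1-positive fraction, and the 3 replicates of each fraction came from independent donor preparations. Neither fraction carried a treatment or an engineered allele in the labels, and strain and exact age are not given in the sources used here. Total RNA was hybridised to 1 Affymetrix array per sample, named N1 to N3 in the Thy1-negative and P1 to P3 in the Thy1-positive fraction, and values are given in that order. All values are log2(intensity + 1) and all differences are Thy1-positive minus Thy1-negative. A probe set is said to have risen or fallen, or to have been called, where the adjusted p of limma over all 45037 probe sets was below 0.05. Since probes differ in how brightly they report a message, levels were compared between arrays and never between genes. Every n is 3 arrays per fraction, and that number limits the precision of each value.

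Dazl binds the 3′ untranslated regions of messenger RNAs and promotes their translation in germ cells. Nanos proteins act with Pumilio proteins such as Pum2, which recognise a short element in target messages, and recruit the CCR4-NOT complex that shortens the poly(A) tail. Dnd1 is a partner of Nanos proteins and is needed for the survival of primordial germ cells. Elavl2 belongs to the Hu family, which binds AU-rich elements and stabilises messages. Lin28a and Lin28b block the maturation of let-7, a microRNA family, and Igf2bp1 to Igf2bp3 are oncofetal proteins that protect bound messages, with several of their own messages known as let-7 targets.

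The sequences shown first are those of let-7, because the genes of its pathway are counted below. Among the members, the background above links let-7 to Lin28b and the Igf2bp genes only. The arrays give no value for let-7 itself. The RefSeq table of the GRCm38.p6 build held 23 mature arms of 12 let-7 and miR-98 hairpins, and 11 of the arms share 1 seed, given in capitals (bases 2 to 8).
mmu-let-7a-5p: uGAGGUAGuagguuguauaguu
mmu-let-7g-5p: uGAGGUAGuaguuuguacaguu
mmu-miR-98-5p: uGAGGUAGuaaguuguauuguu
Lin28 proteins recognise the letters GGAG in the loop of the let-7 hairpin. These letters, in capitals below, occurred in 9 of the 12 hairpins, against 44.5% of all 1005 mouse hairpins of the table. Mirlet7g, at chr9 on the plus strand, holds 1 match, and Mirlet7b, at chr15, holds 0.
Mirlet7g: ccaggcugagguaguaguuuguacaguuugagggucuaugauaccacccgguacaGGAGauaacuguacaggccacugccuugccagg
Mirlet7b: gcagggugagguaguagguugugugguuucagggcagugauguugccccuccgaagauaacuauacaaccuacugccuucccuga
A match describes the letters and is not a measured binding site.

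Promoters are shown for Dazl and Nanos1, whose values took the same order over the Thy1-negative arrays, and for Lin28b, whose value hardly varied. They were taken from RefSeq on GRCm38.p6 as the 250 bases before the start of the gene, 5′ to 3′ on the strand of the gene, with CG dinucleotides in capitals. Windows were taken for 7 of the 9 genes, with 14 starts, and none for Dnd1 or Igf2bp1.
Dazl, chr17:50293621-50293870, minus strand: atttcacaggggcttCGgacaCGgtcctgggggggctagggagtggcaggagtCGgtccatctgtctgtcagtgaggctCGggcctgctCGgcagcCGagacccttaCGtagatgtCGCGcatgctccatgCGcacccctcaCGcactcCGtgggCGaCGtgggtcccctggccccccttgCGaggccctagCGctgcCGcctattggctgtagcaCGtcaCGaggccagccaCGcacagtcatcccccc
Nanos1, chr19:60755737-60755986, plus strand: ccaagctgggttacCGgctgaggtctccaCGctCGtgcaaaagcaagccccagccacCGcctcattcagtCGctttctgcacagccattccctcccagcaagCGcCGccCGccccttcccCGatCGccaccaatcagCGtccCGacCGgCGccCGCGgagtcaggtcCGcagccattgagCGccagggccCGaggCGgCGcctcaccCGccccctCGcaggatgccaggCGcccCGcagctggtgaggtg
Lin28b, chr10:45470202-45470451, minus strand: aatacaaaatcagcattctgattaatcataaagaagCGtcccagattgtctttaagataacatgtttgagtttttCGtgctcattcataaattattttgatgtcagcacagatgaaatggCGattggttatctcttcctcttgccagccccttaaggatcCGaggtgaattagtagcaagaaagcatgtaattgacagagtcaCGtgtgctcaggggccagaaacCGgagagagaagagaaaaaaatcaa
The window held 20 CG dinucleotides for Dazl, 25 for Nanos1 and 6 for Lin28b, where the median of all 32851 promoters was 6. Windows of members with other array patterns also held many: 21 for Igf2bp3, 30 to 36 for Pum2 and 40 for Igf2bp2, which has no array value. Those of Elavl2 held 10 to 21. A link between CG count and array values was not tested. The E-box CACGTG, which reads alike on both strands, occurred once for Lin28b, once for Igf2bp3 and not in the windows of Dazl or Nanos1. It was present in 6.02% of all promoters. The E2F-type letters TTCCCGC, searched on both strands and with no overlap with CACGTG, occurred in 1 of the 3 Pum2 windows and in 3.82% of all promoters.

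Markers of cell types moved with the fractions. Thy1 measured 2.35, 2.35 and 2.74 in the Thy1-negative arrays against 6.05, 6.52 and 6.05 in the Thy1-positive ones (adjusted p = 0.00151). The list of undifferentiated spermatogonia had 10 of 12 genes called higher and the macrophage list 10 of 10, while the Sertoli list had 11 of 12 called lower. Of the other lists, 5 of 7 peritubular myoid and 1 of 4 Leydig genes fell, 3 of 4 T lymphocyte and 1 of 6 endothelial genes rose, and 0 of 6 mesenchymal genes were called by limma (0 with an unadjusted p below 0.05). The leading marker of spermatogonia, Gfra1, differed by 3.47, that of Sertoli cells, Sox9, by -4.05, and that of macrophages, Csf1r, by 3.74. Over all genes 16.4% rose and 13.2% fell. Of the general germ cell list, 4 of 10 genes rose and 6 were not called. Its summed intensity was 7672, 23934 and 11563 in the Thy1-negative arrays and lay between 40374 and 41892 on the Thy1-positive arrays, so N2 stood apart from N1 and N3 toward the Thy1-positive arrays. The summed Sertoli intensity ran from 90083 to 111869 in the Thy1-negative and from 5428 to 21528 in the Thy1-positive fraction, where P2 stood apart at 21528 against 5428 and 6302, with Amh below the 25th percentile on all Thy1-positive arrays. The summed mesenchymal intensity of P2, 41022, was likewise above those of P1 and P3, 15531 and 24233. The summed macrophage intensity ran from 107 to 129 in the Thy1-negative and from 10842 to 16330 in the Thy1-positive fraction, and C1qa, C1qc and Ptprc were below the 25th percentile on all Thy1-negative arrays. In such mixed samples a change in the number of cells of a type and a change of RNA per cell cannot be told apart, and the part of cell makeup in the values below was not tested.

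Among the 25 member probe sets, 7 rose, 4 fell and 14 were not called. Over all probe sets 23.4% were called, 11.8% higher and 11.5% lower. By the brightest probe set of each gene, 4 of 8 members rose (Dnd1, Lin28b, Igf2bp1 and Igf2bp3) and 1 fell (Pum2), beside 29.6% of genes called in either direction, 16.4% higher and 13.2% lower. The fractions did not overlap on 18 member probe sets, 14 with the Thy1-positive and 4 with the Thy1-negative arrays above. Of all probe sets 43.6% did not overlap, 24.9% with the Thy1-positive and 18.7% with the Thy1-negative arrays above. The median difference was 0.97 over the member probe sets and 0.00398 over all of them. N2 was the highest Thy1-negative array on 14 of the 25 member probe sets and on 26.9% of all probe sets, and without N2 the member counts were 15 higher and 3 lower, where 28.9% of all probe sets were called. With 1 of the other arrays left out, from N1 and N3 to P1, P2 and P3, the higher count was 4, 1, 2, 3 and 0, and the lower count was 3, 2, 1, 3 and 1. In the same fits 12.4%, 9.39%, 12.1%, 18.3% and 7.05% of all probe sets were called.

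**Figure D1:**
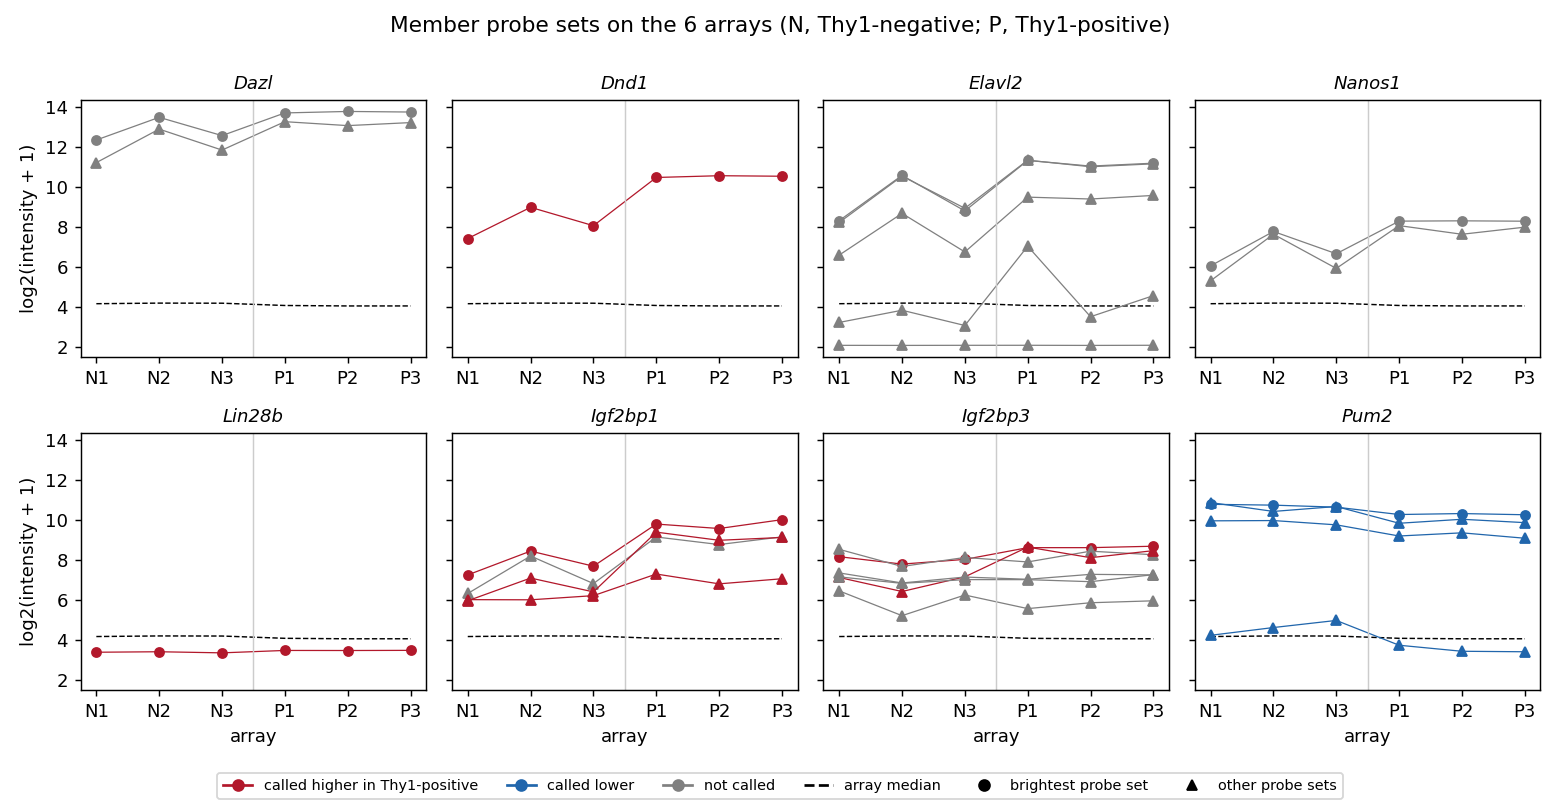
Values of the 25 member probe sets, log2(intensity + 1) on the vertical axis, on the 6 arrays (N, Thy1-negative; P, Thy1-positive), 1 panel a gene; colours give the call, circles the brightest probe set, triangles the others, and the dashed line the median of each array. The brightest probe sets of Dazl, Dnd1, Elavl2, Nanos1 and Igf2bp1 share a Thy1-negative pattern in which N2 is above N3 and N3 above N1, while Lin28b stays below the array median throughout.

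Dazl, the activator of translation, did not pass the test. Its brightest probe set, 1419542_at, measured 12.35, 13.48 and 12.57 in the Thy1-negative and 13.70, 13.78 and 13.75 in the Thy1-positive arrays. Every Thy1-positive array was above every Thy1-negative one, but N2 lay close to them and the Thy1-negative arrays had an SD of 0.60 against 0.04 in the Thy1-positive fraction. The difference was 0.94 (SE 0.32, 95% interval 0.09 to 1.79, adjusted p = 0.114 by limma). The second probe set, 1449502_at, differed by 1.20 (SE 0.46, adjusted p = 0.146). Without N2 both passed, with differences of 1.28 (adjusted p = 0.00348) and 1.65 (adjusted p = 0.0155). Both probe sets also passed with arrays centred on their median (1.06 and 1.32), where 70.6% of all probe sets were called, and when dim probe sets were left out of the test (adjusted p = 0.0334 and 0.0422), where 55.8% were.

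Nanos1, a zinc finger repressor of translation, took the same order over the arrays. Its probe set 1436648_at measured 6.07, 7.78 and 6.67 against 8.30, 8.32 and 8.30 on the Thy1-positive arrays. The fractions did not overlap, and the Thy1-positive arrays agreed within an SD of 0.01, while the Thy1-negative SD was 0.87. The difference of 1.46 (SE 0.47, 95% interval 0.23 to 2.70) did not pass (adjusted p = 0.0960). On 1455877_a_at the difference was 1.60 (SE 0.66, adjusted p = 0.171), with N2 at 7.646 and P2 at 7.645, so that the fractions touched. Without N2 the probe sets passed at 1.94 and 2.28 (adjusted p = 0.00933 and 0.0108).

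Dnd1, the partner of Nanos proteins, rose in the Thy1-positive fraction. Its single probe set measured 7.43, 8.99 and 8.07 in the Thy1-negative and 10.48, 10.57 and 10.54 in the Thy1-positive arrays. The lowest Thy1-positive array was above N2, the highest Thy1-negative one. It rose 5.16-fold (2.37, SE 0.42, adjusted p = 0.0221). The call held without N1 or N2 and was lost without N3 (2.32, adjusted p = 0.0871), P1 (2.39, 0.0751), P2 (2.35, 0.0680) or P3 (2.36, 0.0911), where the size hardly moved.

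Pum2, the Pumilio protein that works with Nanos factors, fell in the Thy1-positive fraction on all 4 of its probe sets. The brightest, 1418017_at, measured 10.78, 10.74 and 10.64 on the Thy1-negative arrays and 10.27, 10.32 and 10.26 on the Thy1-positive ones. The groups were narrow and did not overlap, and N2 lay between N1 and N3, unlike in the germ cell members above. The difference of -0.44 (SE 0.04, adjusted p = 0.00660) is 1.35-fold lower. It was called without each array in turn, with differences from -0.48 to -0.41. The other probe sets fell by 0.74, 0.68 and 1.08 on the log2 scale (adjusted p = 0.0222, 0.0136 and 0.0314). The last of these, 1441448_at, was dim, below the array median on all Thy1-positive arrays, and held its call without N1 alone. The probe set that fell by 0.74 lost its call without N3 (-0.74), P1 (-0.71) or P3 (-0.72), and that which fell by 0.68 lost it without N1 (-0.65), P1 (-0.67) or P3 (-0.62).

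Elavl2, the Hu protein of germ cells and neurons, did not pass on any of its 5 probe sets. Its brightest probe set, 1421882_a_at, measured 8.33, 10.58 and 8.81 in the Thy1-negative and 11.33, 11.05 and 11.19 in the Thy1-positive arrays. The fractions did not overlap, and N2 was closer to the Thy1-positive arrays than to N1 or N3. The difference was 1.95 (SE 0.64, 95% interval 0.25 to 3.65, adjusted p = 0.103). Probe sets 1421883_at and 1421881_a_at differed by 1.93 and 2.15 (adjusted p = 0.106 and 0.0762). All 3 had an unadjusted p below 0.05, and all 3 passed without N2, at 2.62, 2.59 and 2.81. The other pair was dim: 1433052_at measured 2.09 to 2.10 on every array, and 1454454_at measured 7.05 on P1 but 3.53 and 4.58 on P2 and P3, with Thy1-negative values from 3.09 to 3.85.

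Igf2bp1 rose on 3 of its 4 probe sets. The brightest, 1418761_at, measured 7.25, 8.44 and 7.69 in the Thy1-negative and 9.79, 9.57 and 10.01 in the Thy1-positive arrays. No Thy1-negative array reached the Thy1-positive range, and the rise was 3.99-fold (2.00, SE 0.35, adjusted p = 0.0206). Probe set 1455223_at measured 5.96, 7.10 and 6.41 in the Thy1-negative and 9.39, 8.98 and 9.13 in the Thy1-positive arrays and rose 6.40-fold (2.68, SE 0.33, adjusted p = 0.00978), the largest difference of any member probe set. Its call was lost without P3 (2.70, adjusted p = 0.0529) and held without each other array. That of 1418761_at was lost without N3 (1.94), P1 (2.00), P2 (2.11) or P3 (1.89). The third, 1459825_x_at, rose by 0.97 (adjusted p = 0.0151), lost without N1 (0.94), N3 (1.04) or P3 (0.97), and carries the ending by which Affymetrix marks probes that can bind other transcripts. The fourth, 1449210_at, differed by 1.91 (SE 0.53, adjusted p = 0.0686) and passed without N2 (2.45).

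Igf2bp3 gave different answers from different probe sets. Of 6 probe sets, 1453957_a_at measured 7.13, 6.43 and 7.16 in the Thy1-negative and 8.64, 8.12 and 8.47 in the Thy1-positive arrays and rose 2.84-fold (1.51, SE 0.27, adjusted p = 0.0216). Here N2 was the lowest Thy1-negative array, the reverse of its place in Dazl, Dnd1 and Elavl2. The brightest, 1422610_s_at, whose ending marks probes that can match more than 1 transcript, measured 8.16, 7.79 and 8.03 in the Thy1-negative and 8.62, 8.62 and 8.69 in the Thy1-positive arrays and rose 1.56-fold (0.64, SE 0.10, adjusted p = 0.0173). Both calls were lost without N3, P1 or P3 (1.63, 1.39 and 1.48; 0.66, 0.66 and 0.62), the first also without N1 (1.62) and the second also without P2 (0.66). The other 4 probe sets differed by -0.18 to 0.09, were not called (adjusted p from 0.826 to 0.887) and overlapped between fractions. The 95% interval of 1453957_a_at was 0.804 to 2.21. Those of 1433731_at (-0.33 to 0.48) and 1433732_x_at (-0.28 to 0.41) did not reach it. Those of 1422611_s_at and 1450687_at just did, with upper limits of 0.812 and 0.807. The gap between 1453957_a_at and 1450687_at, the probe sets with the highest and lowest difference, was 0.67, 1.21 and 0.91 in the Thy1-negative and 3.07, 2.25 and 2.50 in the Thy1-positive arrays. It was wider in the Thy1-positive fraction by 1.68 (exact two-sided permutation p = 0.1, the smallest that 3 against 3 arrays allow). The pair was chosen after its values were seen, as the extremes of these same differences, so this p-value cannot decide whether the probe sets differ.

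Lin28b was called higher by a difference of 0.09, on values below the median of every array. Its single probe set measured 3.39, 3.42 and 3.36 in the Thy1-negative and 3.48, 3.48 and 3.49 in the Thy1-positive arrays. The call (1.07-fold, SE 0.02, adjusted p = 0.0236) came from values that hardly varied. It held without N2 and was lost without N1 (0.09), N3 (0.08), P1 (0.09), P2 (0.09) or P3 (0.09). It was also lost when low values were raised to the 25th percentile (adjusted p = 0.0652), with a variance trend (0.125) and with centring on housekeeping genes (0.211).

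**Figure D2:**
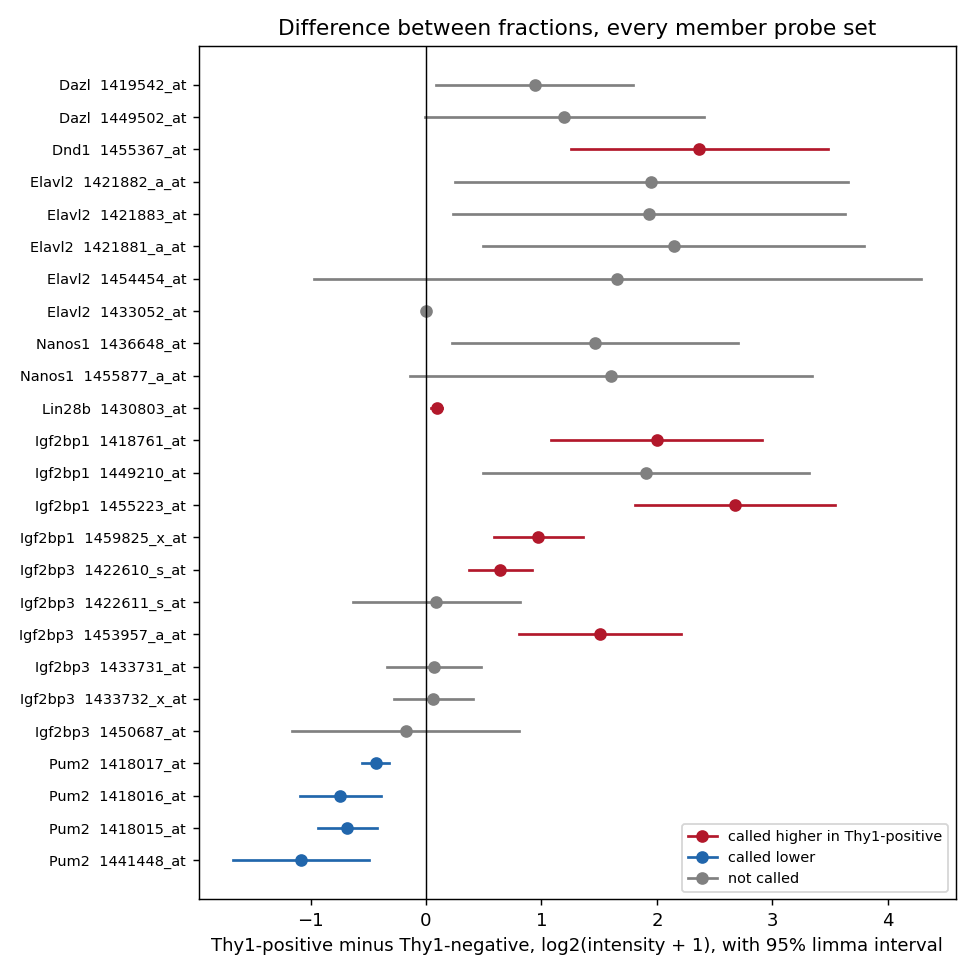
Difference between fractions (Thy1-positive minus Thy1-negative, log2(intensity + 1)) with its 95% limma interval for each of the 25 member probe sets; red was called higher, blue lower and grey not called. The widest intervals belong to Elavl2 and Nanos1, the narrow ones near 0 to Lin28b at 0.09 and to the dimmest Elavl2 probe set, and all 4 Pum2 probe sets lie below 0.

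The members were also set against germ cell markers, which moves all their differences by the same amount. For each array the mean log2 value of the 10 general germ cell markers (8.79, 10.55 and 9.35 in the Thy1-negative, 11.43, 11.51 and 11.43 in the Thy1-positive arrays) was subtracted from the brightest probe set of each member, as a description with no test. Lin28b, which differed by 0.09 before this step, differed by -1.80 after it. A negative difference here is therefore not by itself a fall. The share of all probe sets without overlap after this step was not counted. Before it, the 10 markers themselves differed by 1.27 (Ddx4) to 2.57 (Tdrd1). Dnd1 (2.37) and Nanos1 (1.46) lay within that range, Dazl (0.94) below it and Igf2bp1 probe set 1455223_at (2.68) above it. The places of Dnd1 and Nanos1 relative to the marker mean therefore do not set them apart from the markers. Dazl stood at 3.57, 2.93 and 3.23 in the Thy1-negative and 2.27, 2.27 and 2.32 in the Thy1-positive fraction. Its difference was -0.95, with no overlap. Nanos1 stood at -2.72, -2.77 and -2.67 against -3.13, -3.19 and -3.13, a difference of -0.43 with no overlap. Its other probe set, 1455877_a_at, differed by -0.29 and overlapped between fractions. Dnd1 stood higher in the Thy1-positive fraction, at -1.35, -1.56 and -1.27 against -0.95, -0.94 and -0.89 (0.47), with no overlap. Elavl2 (0.06) and Igf2bp1 (0.10) overlapped between fractions. Probe set 1455223_at of Igf2bp1, not its brightest, stood at -2.82, -3.46 and -2.94 against -2.04, -2.53 and -2.30 (0.78), also with no overlap. Igf2bp1 probe sets 1449210_at (0.01) and 1459825_x_at (-0.92) overlapped between fractions. Pum2 differed by -2.33 and Igf2bp3 by -1.25, and their Thy1-negative values spread with an SD of 0.91 and 1.09, N2 being the lowest of the 3 in both.

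**Figure D3:**
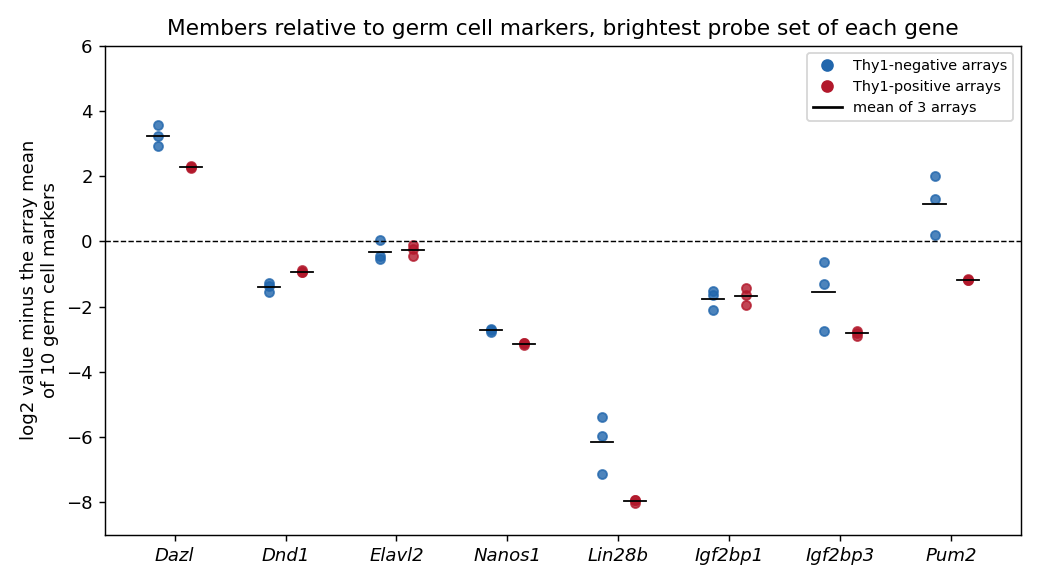
Brightest probe set of each member minus the mean of 10 germ cell markers on the same array (log2, vertical axis), with 3 Thy1-negative arrays in blue, 3 Thy1-positive arrays in red and their mean as a bar. Relative to the markers, Dazl lies lower in Thy1-positive arrays (-0.95) and Dnd1 higher (0.47), while Elavl2 and Igf2bp1 overlap. Before the subtraction the markers themselves differed by 1.27 to 2.57, a range that also held Dnd1 at 2.37. Lin28b, nearly flat before the subtraction, differs by -1.80.

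The genes closest in profile were taken by the root mean square distance between values centred on the mean of the 6 arrays, over 9096 genes above the median signal. Nearest to Dazl were Focad, Ccdc181 and Mcmbp, at distances of 0.03, 0.03 and 0.05. Nearest to Pum2 were Ptp4a2, Gtf3c1 and Copb1, at 0.03 each, with differences of -0.45, -0.40 and -0.45. Nearest to Lin28b were Hnrnpa2b1, Kcnj11 and Ywhaz, at 0.02 each, all genes with nearly flat values.

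Relatives of the members with a probe set of their own were Boll, Lin28a, Elavl1, Elavl3 and Elavl4; Nanos2 and Nanos3 are not analysed here. Of these 5, 0 were called by limma, where 29.6% of all genes were, and 2 had an unadjusted p below 0.05. Their median difference was 0.17, beside 0.01 over all genes. Lin28a measured 8.19, 10.15 and 9.26 in the Thy1-negative and 11.01, 11.11 and 10.99 in the Thy1-positive arrays (1.84, SE 0.53, adjusted p = 0.0738). This probe set, the brightest of Lin28a, was above the median of every array and passed without N2 (2.31). Another Lin28a probe set was dim, from 2.77 to 3.17, below the median of every array. It differed by 0.15 (adjusted p = 0.320) and overlapped between fractions. Boll, of the Dazl family, measured 6.42, 8.58 and 7.07 in the Thy1-negative and 9.36, 9.24 and 9.40 in the Thy1-positive arrays (1.98, SE 0.60, adjusted p = 0.0833) and also passed without N2 (2.59). These are the values of its brightest probe set. The other Boll probe sets differed by 1.62, 1.53 and 0.12 and overlapped between fractions (adjusted p = 0.185, 0.156 and 0.514). Elavl1, the widely expressed Hu protein, differed by 0.17 (adjusted p = 0.260) on its brightest probe set, while 3 of its 5 other probe sets fell. Elavl3 and Elavl4, the neuronal Hu proteins, were below the array median and differed by 0.01 and -0.05.

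Among subunits and partners of CCR4-NOT and other deadenylation factors, through which Nanos and Pumilio proteins act, 8 of 15 genes rose and 3 fell, with a median difference of 0.30. The background was 29.6% of genes called in either direction, 16.4% higher and 13.2% lower. That background includes dim genes, whereas every gene of this list was above the median of every array. With only probe sets above the median tested, 55.8% of them were called, and 7 genes of the list rose and 3 fell. Pan2, the deadenylase subunit of the PAN complex, measured 8.67, 9.03 and 8.49 in the Thy1-negative and 9.90, 9.99 and 9.89 in the Thy1-positive arrays (1.20, SE 0.15, adjusted p = 0.0103). Cnot11, a scaffold-binding subunit, rose by 1.10 (SE 0.21, adjusted p = 0.0256). Of the catalytic subunits, Cnot6 fell, from 11.80, 11.15 and 11.67 to 9.99, 10.22 and 10.01 (-1.47, SE 0.20, adjusted p = 0.0119). Cnot7 fell by 0.87 (SE 0.07, adjusted p = 0.00371), while its close relative Cnot8, singled out after its values were seen, rose by 0.53 (SE 0.07, adjusted p = 0.0121). Cnot6l, the relative of Cnot6, differed by 0.09 (adjusted p = 0.513) and was not called. Pan2 lost its call without P3 (1.22), Cnot6 without N3 (-1.41) or P3 (-1.44), and Cnot11 without N1 (0.98), N3 (1.00), P1 (1.15), P2 (1.09) or P3 (1.07). Leaving out 1 array at a time in the stated order, 4, 7, 3, 4, 4 and 1 genes of the list rose and 2, 3, 1, 2, 2 and 1 fell.

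In the let-7 pathway 4 of 15 genes rose and 2 fell, with a median difference of 0.24, beside 29.6% of all genes called. Of the 6 let-7 targets in the list, Trim71 and Arid3b rose, and Hmga2 (0.02), Arid3a (0.24), Nras (-0.49) and Igf1r (0.81) were not called. Hmga2 measured 2.82 to 2.85, below the median of every array. Trim71 measured 7.87, 9.10 and 8.71 in the Thy1-negative and 10.71, 10.28 and 10.48 in the Thy1-positive arrays (1.93, SE 0.36, adjusted p = 0.0245). Arid3b rose by 1.90 (SE 0.44, adjusted p = 0.0428). Ago2, the Argonaute that carries microRNAs, fell by 1.33 on the log2 scale (SE 0.31, adjusted p = 0.0443), and Dis3l2, the nuclease that degrades let-7 precursors tagged under Lin28a, fell by 0.99 (SE 0.22, adjusted p = 0.0377). Most of these calls did not hold without 1 array: leaving out 1 array at a time in the stated order, 1, 5, 0, 0, 0 and 0 genes of the list rose and 0, 2, 0, 0, 1 and 0 fell. Trim71 held without N1 or N2, Arid3b and Ago2 without N2, and Dis3l2 in none of these 6 fits. Dis3l2 also lost its call with quantile normalization (adjusted p = 0.0576) and Ago2 with a pseudocount of 16 (0.0503). The differences without 1 array ran from 1.58 to 2.20 for Trim71, from 1.65 to 2.36 for Arid3b, from -1.61 to -1.16 for Ago2 and from -1.13 to -0.82 for Dis3l2.

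On a list of other RNA-binding proteins of germ cells, 2 of 17 genes rose and 4 fell, beside 29.6% of all genes called. The median difference was -0.21 over these 17 genes. Those with the largest falls were Mex3b, a KH domain protein, from 10.82, 10.16 and 11.05 to 7.46, 7.59 and 7.59 (-3.13, SE 0.25, adjusted p = 0.00423), and Samd4, the mouse Smaug repressor, by 3.07 (SE 0.29, adjusted p = 0.00597). Both held in each of the 6 fits that left out 1 array. On both, N2 was the lowest Thy1-negative array (10.16 for Mex3b, 8.88 for Samd4), while it was the highest for the germ cell marker sum. The cell types behind these values were not tested. Fmr1 (0.69, adjusted p = 0.0345) and the poly(A)-binding Pabpc1 (0.38, adjusted p = 0.0208) rose. Pabpc1 lost its call with quantile normalization (adjusted p = 0.0651). Fmr1 was called only without N2 among the fits that left out 1 array, Pabpc1 only without N2 or N3, and leaving out 1 array at a time in the stated order, 0, 5, 1, 1, 0 and 0 genes rose and 4, 4, 3, 4, 4 and 3 fell.

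Among 5 messages reported as clients of Igf2bp proteins, Cd44 rose and Myc fell, with a median of 0.10. Over all genes 29.6% were called, which is also the share to set beside the Dazl messages below. Cd44, a receptor for hyaluronan that leukocytes also carry, measured 4.59, 4.06 and 4.82 in the Thy1-negative and 7.86, 8.35 and 8.03 in the Thy1-positive arrays (3.59, SE 0.25, adjusted p = 0.00311), in the arrays where the 10 macrophage markers rose. Their part in it was not tested. Myc fell by 1.08 (SE 0.26, adjusted p = 0.0484) and held its call without N2 alone (-1.35), with differences from -1.17 to -0.90 without each of the others in turn. Its call was also lost with quantile normalization (adjusted p = 0.0703) and with a pseudocount of 16 (0.0590). Among 3 messages reported as bound by Dazl, Tex19.1 rose, from 10.13, 11.44 and 10.80 to 12.66, 12.81 and 12.85 (1.98, SE 0.36, adjusted p = 0.0227), and lost its call without N3 (1.99), P1 (2.04), P2 (1.97) or P3 (1.94). Ddx4, a germ cell RNA helicase, differed by 1.27 (SE 0.33, adjusted p = 0.0552) and passed without N2 (1.57). Its Thy1-negative values of 11.18, 12.38 and 11.74 had the order of those of Dazl.

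**Figure D4:**
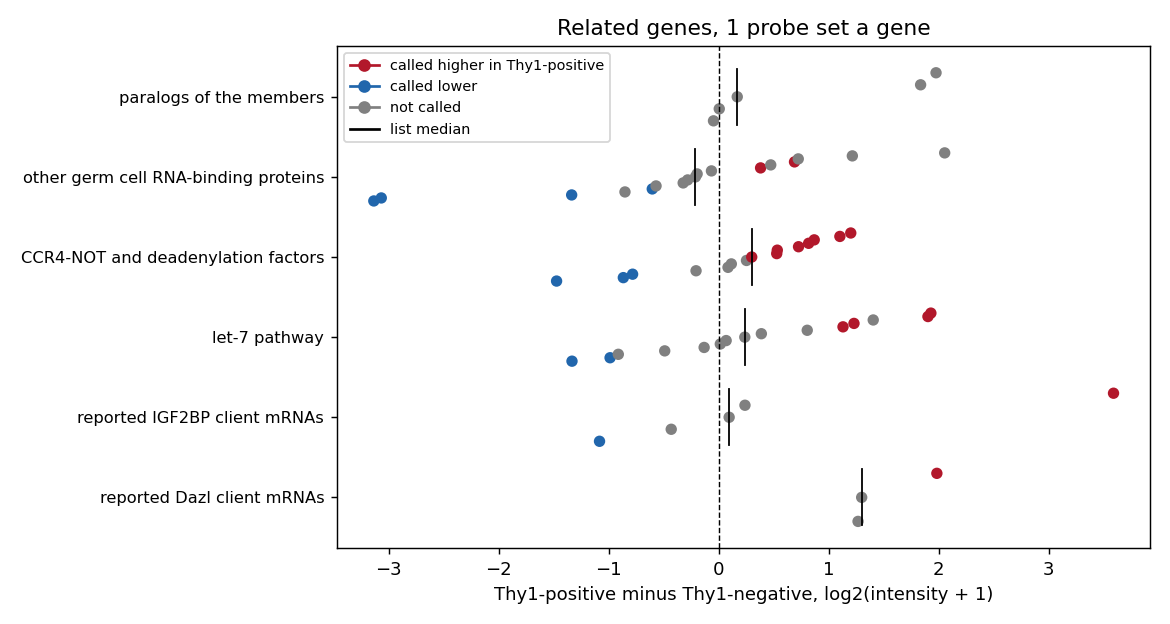
Differences (Thy1-positive minus Thy1-negative, log2(intensity + 1)) of genes related to the members, 1 probe set a gene, in 6 lists; points are genes coloured by their call (red higher, blue lower, grey not called) and bars are list medians. CCR4-NOT and deadenylation factors show 8 genes higher and 3 lower, and Mex3b and Samd4 lie at -3.13 and -3.07. Of all genes 29.6% were called, and of probe sets above the median, tested alone, 55.8%.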

How the data were processed

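The values deposited by the authors are linear intensity values, 1 for each probe set on each array. Per the submitters' processing notes GCRMA was used, whereas the sample descriptions name other Affymetrix software with scaling of each array to a set target. The table does not carry that scaling, since the trimmed means were 285 to 291, and the sources used here do not settle which procedure was run. Of 45101 probe sets, 64 controls were left out. Platform gene symbols named 1 gene for 34945 of the rest, several for 932 and none for 9160. The values were taken as log2(intensity + 1) without further normalization and compared with limma 3.58.1 (lmFit, eBayes; R 4.3.3), two-sided, with Benjamini-Hochberg adjustment over 45037 probe sets; the code was tested on simulated data. Genes of lists were represented by the probe set with the highest mean (18193 genes). Some of these, among them those of Cnot7, Ago2 and Boll, have the ending _s_at of probes that can match more than 1 transcript.

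Named genes were all members, Thy1, relatives of the members, up to 2 called genes per direction and list, the first gene of each marker list, and the 3 genes nearest to Dazl, Lin28b and the member with the largest called decrease. Further list genes were named outside this rule: Amh, C1qa, C1qc, Ptprc, Tdrd1, Cnot6l, Cnot8, Hmga2, Arid3a, Nras and Igf1r. Members and lists were chosen with earlier results of these data known. Other listed genes, among them Cnot1 and Hmga1, were not analysed here. Alternatives were quantile normalization, median or housekeeping centring, filters, a pseudocount of 16, the replicate block, a variance trend, 1 probe set a gene, and leaving out each array.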

Additional observations from a re-analysis of the deposited data

How the results depend on the processing

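Quantile normalization, housekeeping centring, raised low values, a pseudocount of 16, the variance trend and a test on 1 probe set a gene left the counts of called members within 1.5 times of those reported. With arrays centred on their median, which moved the median difference of all probe sets to 0.13, 15 member probe sets were higher and 4 lower, 7 member genes were higher and 30 genes of the related lists were higher. That shift exceeds the difference of Lin28b, and 70.6% of all probe sets were called in that fit (25863 higher of 45037). Of the called probe sets 81.4% were then higher, against 50.6% as reported. Restricting the test to probe sets above the median gave 14 higher of the 21 member probe sets it kept, where 55.8% of all probe sets were called (6526 higher of 22518). With the replicate number as a block, under which 2.73% of all probe sets were called, 0 member probe sets were higher and 1 lower, 0 member genes were higher and 0 lower, 0 and 0 genes of the related lists and 13 and 4 of the marker lists were called. The sources used here do not say whether same-numbered arrays share a preparation. Deviations of same-numbered arrays from their group means correlated at -0.19, -0.17 and -0.01, which cannot settle it with 3 arrays per fraction. Leaving out 1 array gave 0 to 15 higher and 1 to 3 lower member probe sets, 0 to 7 higher member genes, 2 to 23 higher and 4 to 10 lower genes of the related lists and 7 to 17 lower marker genes. No called member changed sign under any alternative run. Uncalled differences near 0 did: for Igf2bp3 the ranges without 1 array were -0.13 to 0.30 (1422611_s_at), -0.0597 to 0.191 (1433731_at), -0.0359 to 0.140 (1433732_x_at) and -0.554 to 0.0643 (1450687_at). Elavl2 1433052_at gave -0.00117 under housekeeping centring, Elavl3 -0.00112 to 0.0102 without 1 array, and Elavl4 0.0763 under median centring and -0.132 to 0.103 without 1 array.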
